A study of Mus musculus with 15 samples.

Results

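Polycomb repressive complex 1 (PRC1) is the enzyme that attaches a ubiquitin to a lysine of histone H2A, giving the mark H2AK119ub1. The genes described here encode the subunits that write this mark, chosen as the rows of the expression table named Ring1, Rnf2, Bmi1, Pcgf1, Pcgf2, Pcgf3, Pcgf5, Pcgf6, Rybp and Kdm2b. The table held 8 of these 10 genes among 14392, and Ring1 and Pcgf2 were not analysed here. RING1 and RNF2 are the alternative E3 ligases of the complex. Each ligase binds a PCGF protein, and the PCGF protein decides which other subunits join. BMI1 (the PCGF4 of the family) and PCGF2 form canonical PRC1 with CBX and PHC proteins, whereas PCGF1, PCGF3, PCGF5 and PCGF6 form variant complexes with RYBP or its paralog YAF2. KDM2B brings the PCGF1 complex to unmethylated CpG islands through a zinc finger that binds the CG dinucleotide. In the mouse oocyte PRC1 deposits H2AK119ub1, and in the embryo that follows it acts while the genome is switched on, the process called zygotic genome activation (ZGA).

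RNA-seq was performed on zygotes and 2-cell embryos, with 2 libraries in each of 4 groups and 10 embryos pooled per library. WT embryos came from Usp16+/+ females. The cKO embryos came from Usp16 fl/fl;Gdf9-Cre females, in which the growing oocyte loses Usp16, the gene of a deubiquitinase that removes ubiquitin from H2A. Those females were mated with WT males, so the embryos carried a maternal null and a paternal intact allele (maternal -/paternal +). All mice had a C57BL/6 background, and embryos of both genotypes were cultured in KSOM medium. Gdf9-Cre acts in oocytes, so the cKO groups are models of maternal loss and not of a null embryo. Nothing in the labels says that the 2 libraries of a group came from separate females or days, and p-values then measure only the spread between these libraries. Values are FPKM, sequenced fragments scaled to the exon length of a gene and to the size of the library. Different genes can therefore be set side by side, but only roughly, since the annotation that gave the lengths is not known. The authors had set every value under 1 to 1, and all 8 listed subunits were above this floor in every library.

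Usp16 had 184.4 and 187.5 FPKM in WT zygotes and 16.8 and 22.0 FPKM in cKO zygotes, a 9.58-fold lower mean (log2 fold change -3.21 ± 0.34 SE, limma adjusted p = 0.191). In cKO 2-cell embryos it had 167.7 and 84.8 FPKM, compared with 168.4 and 183.1 FPKM in WT 2-cell embryos. The SE above is shared by all groups and includes this uneven cKO pair. Without counts in the table, the sequencing depth is unknown. The FPKM values summed to between 547752 and 593317 in 7 libraries and to 770989 in cKO 2-cell replicate 2. Genes at the floor numbered 4242 to 4747 in zygote libraries, 1642 and 1716 in WT 2-cell libraries and 3684 and 4240 in cKO 2-cell libraries. As for the labelled stages, the 10 oocyte and zygote genes summed to between 9981 and 11025 FPKM in zygotes, and the 7 listed 2-cell genes to between 580.6 and 819.1 FPKM in WT 2-cell embryos but at most 12.1 FPKM in zygotes. Most listed markers of other cells were at or near the floor in zygotes. Cyp19a1 (22.3 to 26.7 FPKM), Odf2 (23.2 to 27.6 FPKM) and Prm2 (13.5 to 20.1 FPKM) were above the subunit Rybp in every zygote library. The 6 leukocyte markers in the table summed to between 7.47 and 9.48 FPKM in zygotes and between 11.4 and 34.0 FPKM in 2-cell embryos, with Coro1a, Cd52, Cd74, Lyz2 and Fcer1g at the floor in every zygote library. The 3 granulosa markers in the table summed to at most 28.7 FPKM, nearly all from Cyp19a1, and the 5 spermatid markers to at most 49.2 FPKM, mostly from Odf2 and Prm2. Their part in the results below was not tested.

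The promoters of Pcgf5 and Kdm2b are shown because their transcripts moved furthest apart between the stages among the subunits with a promoter entry, and because the CG dinucleotide is the letter pair that KDM2B binds. Each sequence covers 250 bases before to 50 bases after a start annotated in RefSeq (GRCm38.p6), is written 5′ to 3′ in the direction of transcription with CG in capitals, and matched the mm9 assembly (NCBIM37) exactly once at the position given.
Pcgf5 upstream start, chr19:36422569-36422868, plus strand: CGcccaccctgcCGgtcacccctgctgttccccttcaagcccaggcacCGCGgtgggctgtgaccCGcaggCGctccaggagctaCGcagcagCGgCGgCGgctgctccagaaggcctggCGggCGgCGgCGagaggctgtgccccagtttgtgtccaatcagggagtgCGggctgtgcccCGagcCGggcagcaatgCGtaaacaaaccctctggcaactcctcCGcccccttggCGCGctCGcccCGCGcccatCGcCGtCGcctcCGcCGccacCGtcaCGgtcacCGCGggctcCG
Pcgf5 middle start, chr19:36453307-36453606, plus strand: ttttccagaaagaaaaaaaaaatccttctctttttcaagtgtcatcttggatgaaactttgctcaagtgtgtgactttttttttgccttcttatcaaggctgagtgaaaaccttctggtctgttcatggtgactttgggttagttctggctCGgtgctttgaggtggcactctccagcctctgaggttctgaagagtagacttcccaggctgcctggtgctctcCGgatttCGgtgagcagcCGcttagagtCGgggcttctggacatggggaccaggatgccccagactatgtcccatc
Pcgf5 downstream start, chr19:36483988-36484287, plus strand: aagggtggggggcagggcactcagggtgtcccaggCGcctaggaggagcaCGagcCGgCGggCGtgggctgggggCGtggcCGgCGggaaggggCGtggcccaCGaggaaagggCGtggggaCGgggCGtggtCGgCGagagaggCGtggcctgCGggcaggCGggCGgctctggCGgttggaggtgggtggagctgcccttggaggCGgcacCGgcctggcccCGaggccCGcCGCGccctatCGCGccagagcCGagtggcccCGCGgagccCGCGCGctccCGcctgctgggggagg
Kdm2b upstream start, chr5:123439059-123439358, minus strand: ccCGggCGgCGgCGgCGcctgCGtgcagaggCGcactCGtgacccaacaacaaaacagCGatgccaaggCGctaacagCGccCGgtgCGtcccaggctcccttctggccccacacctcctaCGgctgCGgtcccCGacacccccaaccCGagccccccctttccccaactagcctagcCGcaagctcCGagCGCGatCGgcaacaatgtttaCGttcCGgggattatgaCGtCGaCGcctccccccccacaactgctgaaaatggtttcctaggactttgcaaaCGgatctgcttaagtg
Kdm2b downstream start, chr5:123350327-123350626, minus strand: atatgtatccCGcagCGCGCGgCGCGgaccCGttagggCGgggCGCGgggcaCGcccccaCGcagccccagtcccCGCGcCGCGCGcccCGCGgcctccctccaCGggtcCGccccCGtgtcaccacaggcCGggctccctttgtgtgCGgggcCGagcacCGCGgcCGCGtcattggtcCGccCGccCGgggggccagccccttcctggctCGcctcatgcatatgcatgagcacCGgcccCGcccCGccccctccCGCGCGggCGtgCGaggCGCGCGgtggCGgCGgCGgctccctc
The Pcgf5 windows held 34, 5 and 35 CG dinucleotides, so the middle start differs from the outer ones. At least 34 were found in 7.73% of all 32851 promoter windows of the same length, at least 5 in 62.0% and at least 35 in 6.95%, and the median window held 7. The Kdm2b windows shown, 2 of its 4 entries, held 28 and 47, counts reached by 14.2% and 1.44% of all windows, and the other entries held 18 (29.7%) and 49 (1.02%). The Rnf2 promoter held 30, those of Bmi1 and Pcgf3 held 23 each, and that of Pcgf6 held 22. No entry was given for Pcgf1 and Rybp. CG content is a description of these windows and was not related to any measured binding.

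In the GENCODE M1 annotation of mm9 each gene is protein-coding. Rnf2 lies at chr1:153316536-153347953 on the minus strand, Bmi1 at chr2:18598645-18608256 on the plus strand and Rybp at chr6:100178560-100237435 on the minus strand. Pcgf1 is the smallest of them, at chr6:83028380-83030841 on the plus strand, with transcripts of 866 and 870 bases. Pcgf3 spans chr5:108890251-108935995 on the plus strand. Pcgf5 and Pcgf6 are both on chromosome 19, at chr19:36453557-36530682 on the plus strand and chr19:47108109-47125380 on the minus strand. Kdm2b, at chr5:123320677-123465089 on the minus strand, overlaps Orai1 and A930024E05Rik on the plus strand, and Pcgf5 overlaps a U6 gene on the minus strand. Smart-seq2 does not mark strand, so reads cannot be told apart where an exon of Kdm2b overlaps an exon of these genes. The overlaps given are of whole gene spans, and those of exons were not checked.

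Zygotes of both genotypes held much Pcgf1 and very little Pcgf5 and Pcgf3. Pcgf1, the PCGF subunit of the KDM2B complex, had 1598 and 940.2 FPKM in WT zygotes and 1475 and 1186 FPKM in cKO zygotes, so that 99.6% of listed genes had a lower mean in WT zygotes. Pcgf5, a subunit of variant complexes with broad H2AK119ub1 activity, had 3.91 and 3.20 FPKM in WT zygotes and 2.80 and 3.33 FPKM in cKO zygotes, near the middle of all listed genes (50.1% had a lower mean in WT zygotes). The order of the WT zygote means was Pcgf1, Bmi1, Pcgf6, Rnf2, Kdm2b, Rybp, Pcgf3 and Pcgf5, and the libraries of neighbours in this order did not overlap. The order was the same in cKO zygotes, where only the libraries of Rnf2 and Kdm2b overlapped. The ligase gene Rnf2 had 74.3 and 120.3 FPKM in WT zygotes and 84.0 and 120.1 FPKM in cKO zygotes. Its library spread within a group, up to 1.62-fold, was thus as wide as most of its differences between groups.

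**Figure D1:**
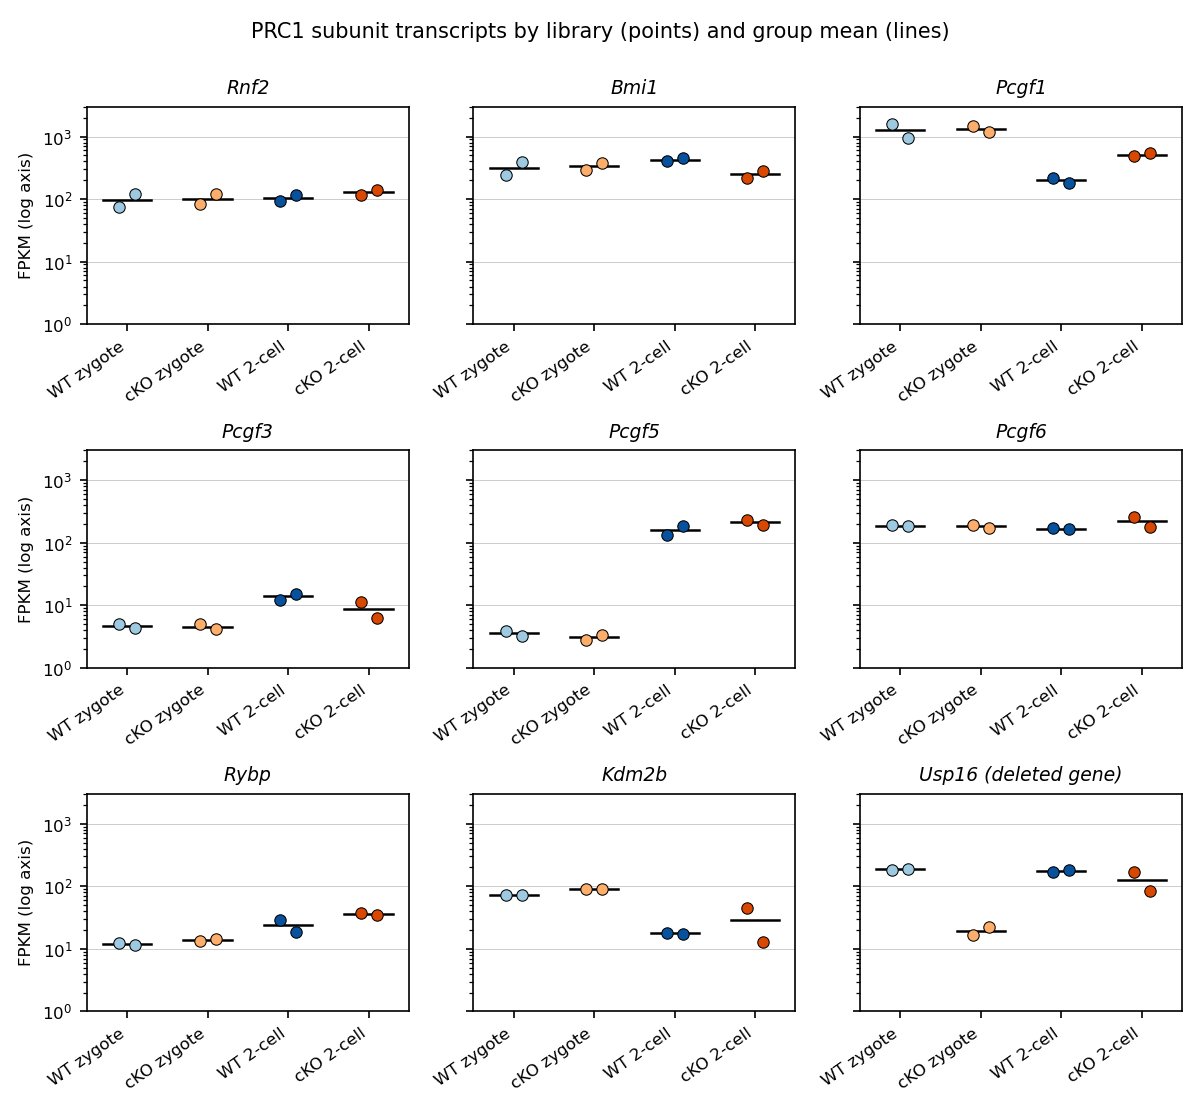
FPKM of the 8 listed PRC1 subunits and of the deleted gene Usp16 on a log axis, by group, with a point for each library and a line at the mean of the 2 libraries. Pcgf5 went from at most 3.91 FPKM in zygotes to at least 131.7 FPKM in 2-cell embryos, Pcgf1 and Kdm2b fell, and Rnf2 stayed between 74.3 and 137.5 FPKM in every library.

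The first comparison asks how the writers of H2AK119ub1 change when WT embryos pass from the zygote to the 2-cell stage, over ZGA. Of the 8 listed subunits, 3 rose (Pcgf5, Pcgf3 and Rybp), 2 fell (Pcgf1 and Kdm2b) and 3 did not pass the test (Rnf2, Bmi1 and Pcgf6) by limma with Benjamini-Hochberg adjustment at 0.05. Among all genes 34.2% rose and 15.5% fell by this test, so the count of 3 rising subunits is near the background. By the rule used in the study, a ratio of mean FPKM above 3, 1 subunit rose (Pcgf5) and 2 fell (Pcgf1 and Kdm2b), where 26.0% of all genes rose and 8.78% fell. The median log2 fold change of the 8 subunits was 0.30, beside 0.27 for all genes.

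Pcgf5 had 131.7 and 187.0 FPKM in WT 2-cell embryos against 3.91 and 3.20 FPKM in WT zygotes. The libraries were far apart, with a 44.8-fold higher mean and a log2 fold change of 5.12 ± 0.24 SE (limma adjusted p = 9.24e-05). Pcgf1 moved the other way, with 220.0 and 181.5 FPKM in WT 2-cell embryos, a 6.32-fold lower mean than in zygotes (log2 fold change -2.61 ± 0.31 SE, limma adjusted p = 0.00102). Kdm2b, whose protein works with PCGF1, had 18.2 and 17.2 FPKM in 2-cell embryos against 71.3 and 72.7 FPKM in zygotes. Its mean was 4.07-fold lower (log2 fold change -1.97 ± 0.52 SE, limma adjusted p = 0.0206). The SE is shared by all 4 groups, also those outside this comparison. Kdm2b pairs differed 1.02-fold in WT zygotes and 1.06-fold in WT 2-cell embryos, but 3.48-fold in cKO 2-cell embryos (45.4 and 13.0 FPKM). The call was lost without any of the 6 libraries other than the cKO 2-cell pair.

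Pcgf3, the closest relative of Pcgf5, stayed at a low level. It had 12.3 and 15.4 FPKM in WT 2-cell embryos against 4.97 and 4.31 FPKM in zygotes, with a log2 fold change of 1.39 ± 0.31 SE (limma adjusted p = 0.0108). RYBP stimulates the ligase activity of variant PRC1. Rybp had 28.6 and 18.8 FPKM in WT 2-cell embryos against 12.4 and 11.4 FPKM in zygotes, a 1.99-fold higher mean (log2 fold change 0.91 ± 0.24 SE, limma adjusted p = 0.0210). The calls of Pcgf3 and Rybp were lost without WT zygote replicate 2, at adjusted p of 0.0667 and 0.0988. The call of Pcgf3 was also lost without WT 2-cell replicate 2 (0.0702) and that of Rybp without WT zygote replicate 1 (0.0712). Median-ratio scaling, described below, took the call from Rybp (0.104), and quantile normalization from Rybp (0.309) and Pcgf3 (0.0737). The fit of the 4 WT libraries alone also took it from Rybp (0.0635).

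The remaining 3 subunits differed by at most 1.34-fold between the stages. Pcgf6, the PCGF subunit of the germline-gene complex with MGA and L3MBTL2, had 170.0 and 165.7 FPKM in WT 2-cell embryos against 189.4 and 184.5 FPKM in zygotes. Its log2 fold change was -0.15, with a 95% interval of -0.69 to 0.38 from limma. Rnf2 had 93.3 and 115.3 FPKM at the 2-cell stage, within the range of its zygote libraries, and its interval ran from -0.62 to 0.88. Bmi1 had 402.0 and 451.9 FPKM against 240.3 and 398.6 FPKM in zygotes, which did not overlap but did not pass the test (log2 fold change 0.46 ± 0.31 SE, limma adjusted p = 0.268). In such pooled embryos, and with FPKM as a share of each library, more RNA of a gene and less RNA of the others cannot be told apart. Scaling shifted all genes at this step. After median-ratio scaling, in which the typical gene keeps its level from library to library, the median of all genes was 0.07 and that of the subunits -0.04, and the genes that rose and fell numbered 4069 and 2929 in place of 4921 and 2224. Quantile normalization gave 3102 and 3935.

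The same stages were compared in cKO embryos, with zygotes and 2-cell embryos that lacked the maternal allele. Here 2 subunits rose (Pcgf5 and Rybp) and 2 fell (Pcgf1 and Kdm2b) by limma, where 24.6% of all genes rose and 27.1% fell. By the ratio of means above 3, Pcgf5 rose and Kdm2b fell, where 22.8% of all genes rose and 19.2% fell. Pcgf5 had 231.2 and 191.0 FPKM in cKO 2-cell embryos, 68.9-fold above the mean of cKO zygotes (log2 fold change 5.70 ± 0.24 SE, limma adjusted p = 5.96e-05). The rise of Pcgf5 thus occurred in both genotypes. Pcgf1 had 483.7 and 538.9 FPKM, a 2.60-fold lower mean than in cKO zygotes (log2 fold change -1.37 ± 0.31 SE, limma adjusted p = 0.0112). That call was lost without cKO zygote replicate 1 (0.0816) and when each group had its own weight (0.165).

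Rybp had 37.3 and 34.7 FPKM in cKO 2-cell embryos against 13.5 and 14.2 FPKM in cKO zygotes, a 2.60-fold higher mean (log2 fold change 1.32 ± 0.24 SE, limma adjusted p = 0.00434). Kdm2b had 45.4 and 13.0 FPKM in cKO 2-cell embryos against 89.5 and 92.0 FPKM in cKO zygotes. All libraries of the later stage were lower, but the pair differed 3.48-fold from each other, the widest of any subunit in any group. The log2 fold change was -1.85 ± 0.52 SE (limma adjusted p = 0.0243), and it was -0.99 without cKO 2-cell replicate 2 and -2.71 without cKO 2-cell replicate 1, both past the threshold. The call was lost without any of the other 6 libraries (0.0531 to 0.111) and in the fit of the 4 cKO libraries alone (0.162). Bmi1 had 215.3 and 280.1 FPKM against 288.3 and 379.3 FPKM in cKO zygotes, lower in both libraries but not past the test (log2 fold change -0.43 ± 0.31 SE, limma adjusted p = 0.304). Pcgf3 (log2 fold change 0.77 ± 0.31 SE, limma adjusted p = 0.0820), Rnf2 (0.34 ± 0.31 SE, limma adjusted p = 0.413) and Pcgf6 (0.24 ± 0.22 SE, limma adjusted p = 0.413) did not pass either. Pcgf3 passed under median-ratio scaling (0.0244), and both Pcgf3 (0.0107) and Pcgf6 (0.0261) passed without cKO 2-cell replicate 2.

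**Figure D2:**
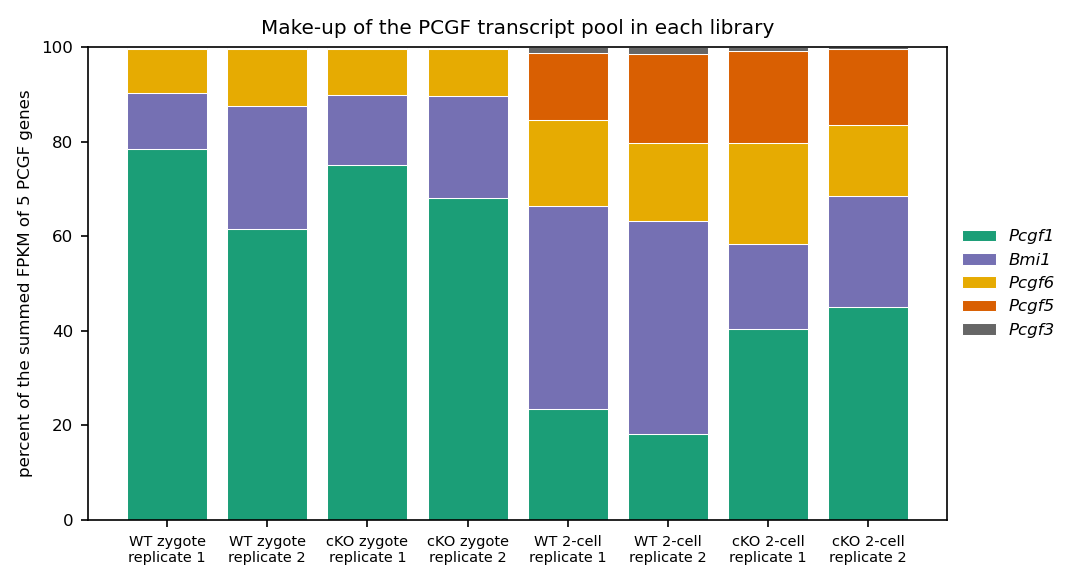
Percent of the summed FPKM of Pcgf1, Bmi1, Pcgf6, Pcgf5 and Pcgf3 that each gene made up, with a stacked bar for each of the 8 libraries. Pcgf1 made up 61.4% to 78.5% in zygote libraries, 18.1% and 23.5% in WT 2-cell libraries and 40.4% and 45.0% in cKO 2-cell libraries.

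Since a ligase holds a single PCGF protein at a time, the transcripts of the 5 listed PCGF genes were also expressed as shares of their sum, which do not depend on how a library is scaled. Pcgf1 made up 69.9% ± 12.1 (SD, n = 2) of this sum in WT zygotes and 20.8% ± 3.80 in WT 2-cell embryos. Pcgf5 went from 0.200% ± 0.0118 to 16.4% ± 3.25, and Bmi1 from 18.9% ± 10.1 to 44.0% ± 1.54. In WT embryos the leading PCGF transcript therefore changed from Pcgf1 to Bmi1. In cKO 2-cell embryos Pcgf1 kept 42.7% ± 3.27 and Bmi1 had 20.7% ± 3.83, so Pcgf1 led there as in zygotes. Neither share overlapped between the WT and cKO 2-cell libraries. The share of Pcgf5 was 16.4% ± 3.25 in WT and 17.6% ± 2.37 in cKO 2-cell embryos, and its libraries overlapped. Pcgf6 made up 17.4% ± 1.14 in WT and 18.3% ± 4.44 in cKO 2-cell embryos, and Pcgf3 at most 1.53% in any library. The smallest two-sided p of an exact permutation test with 2 libraries in each group is 0.333, so no share was tested, and Pcgf2 does not enter these sums.

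Loss of maternal Usp16 was then compared within each stage. In zygotes no subunit passed limma's test or the ratio of 3, against 0.0208% of all genes by limma and 0.153% by the ratio. At an unadjusted p under 0.05 the test likewise took 0 of the 8 subunits, and 408 of the 14392 genes. The differences of the subunits lay between a log2 fold change of -0.16 for Pcgf5 and 0.33 for Kdm2b. Both Kdm2b libraries were higher in cKO zygotes, at 89.5 and 92.0 FPKM against 71.3 and 72.7 FPKM, a 1.26-fold higher mean. The 95% interval on the log2 scale ran from -0.93 to 1.59. It rests on the spread shared by all 4 groups, with the uneven cKO 2-cell pair. The zygote pairs of Kdm2b differed 1.02-fold in WT and 1.03-fold in cKO. Rybp was also higher in both cKO libraries (13.5 and 14.2 FPKM against 12.4 and 11.4 FPKM), with a log2 fold change of 0.20 and an interval of -0.38 to 0.78. The libraries of the other 6 subunits overlapped between the genotypes. Separation of 2 libraries from 2 reaches at best a two-sided exact permutation p of 0.333. The share of all genes separated in this way was not counted. For Rnf2 the interval was -0.66 to 0.84.

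In 2-cell embryos, Pcgf1 was higher in cKO than in WT embryos. Its 483.7 and 538.9 FPKM lay above the 220.0 and 181.5 FPKM of WT embryos, a 2.55-fold higher mean (log2 fold change 1.35 ± 0.31 SE, limma adjusted p = 0.0226). It was the only subunit past limma's threshold, 1 of 8 higher and 0 of 8 lower, where 6.16% of all genes were higher and 24.6% lower. Stage markers moved with this comparison. The 10 oocyte and zygote genes summed to between 6513 and 9555 FPKM in cKO and between 3756 and 4149.5 FPKM in WT 2-cell embryos. By limma 1 of them was higher and 5 were lower in cKO. Dppa3, the 1 called higher, made up most of each cKO sum, with 5888 and 8774 FPKM against 2958 and 2472 FPKM in WT. Bmp15, among the 5 lower, had 79.7 and 67.5 FPKM against 531.4 and 535.8 FPKM. The higher sum therefore describes Dppa3 and not the list. The 7 listed 2-cell genes summed to 201.2 and 275.2 FPKM in cKO embryos, under their 580.6 and 819.1 FPKM in WT embryos, with 5 lower. The part of these markers in the result for Pcgf1 was not tested. No subunit passed the ratio of 3, which 16.3% of all genes did. The median log2 fold change of the subunits was 0.39, beside -0.30 for all genes. Median-ratio scaling moved these medians to 0.86 and 0.02 and quantile normalization to 0.21 and 0.01, and the genes called higher and lower changed from 887 and 3538 to 1605 and 1871, and to 1370 and 1464. Pcgf1 stayed above WT under each of these scalings. Its call was lost when only the 4 2-cell libraries were fitted (limma adjusted p = 0.0765), when each group had its own weight (0.345), without either WT 2-cell library (0.0798 and 0.125), without cKO 2-cell replicate 2 (0.0658) and without either cKO zygote library (0.0560 and 0.0562). The fit of the 4 libraries alone, with 2 residual degrees of freedom, called 0 genes in all, while 4235 genes had an unadjusted p under 0.05 in it.

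**Figure D3:**
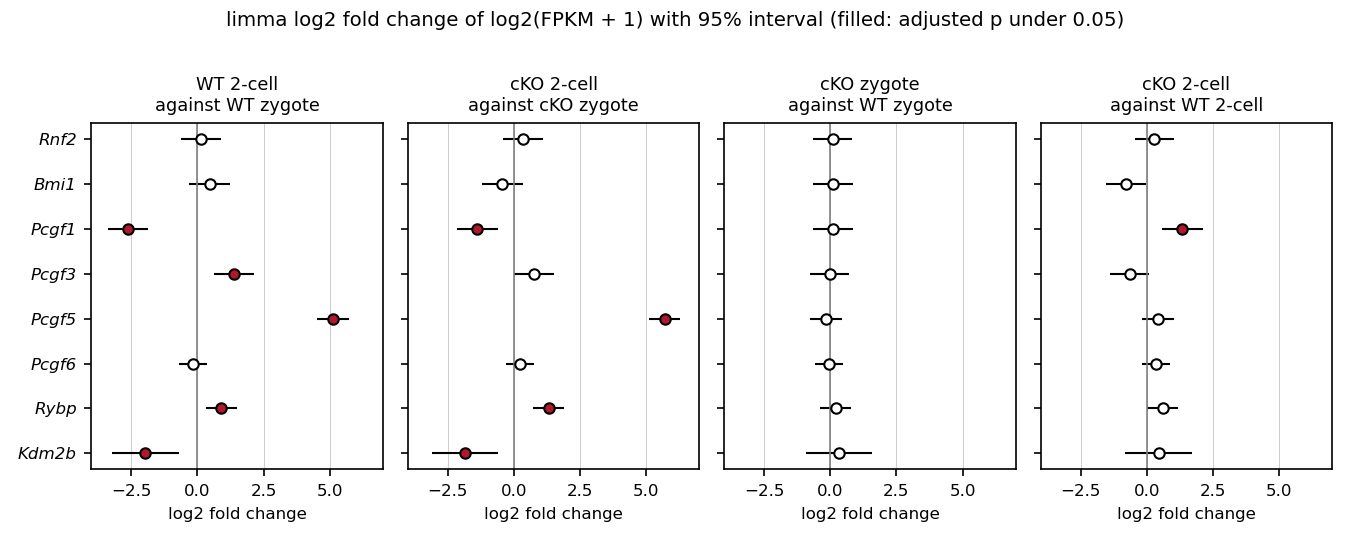
Log2 fold change of the 8 listed PRC1 subunits in 4 comparisons, from limma on log2(FPKM + 1), with 95% intervals as bars and filled points for an adjusted p under 0.05. Calls were made for 5 subunits in WT embryos across the stages, 4 in cKO embryos across the stages, 0 between zygotes and 1 (Pcgf1) between 2-cell embryos.

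Bmi1, the canonical PCGF, was lower in both cKO 2-cell libraries, at 215.3 and 280.1 FPKM against 402.0 and 451.9 FPKM. The mean was 1.72-fold lower but did not pass the test (log2 fold change -0.79 ± 0.31 SE, limma adjusted p = 0.107). Under quantile normalization it did (limma adjusted p = 0.0419). Rybp was higher in both cKO 2-cell libraries, at 37.3 and 34.7 FPKM against 28.6 and 18.8 FPKM (log2 fold change 0.61 ± 0.24 SE, limma adjusted p = 0.104). Pcgf5 was above WT in both libraries as well (log2 fold change 0.42, 95% interval -0.18 to 1.01), and so was Pcgf6, at 256.4 and 181.1 FPKM against 170.0 and 165.7 FPKM (0.36, interval -0.18 to 0.89). Rnf2 had 117.7 and 137.5 FPKM against 93.3 and 115.3 FPKM, with an interval of -0.46 to 1.04. Pcgf3 had 11.1 and 6.31 FPKM against 12.3 and 15.4 FPKM, lower in both libraries (log2 fold change -0.65 ± 0.31 SE, limma adjusted p = 0.165). The share of all genes whose 2-cell libraries lay apart in this way was not counted. Median-ratio scaling added calls for Rybp (limma adjusted p = 0.0252), Pcgf5 (0.0398) and Pcgf6 (0.0327). Rybp also passed without WT 2-cell replicate 1 (0.0177), Pcgf6 without cKO 2-cell replicate 2 (0.0233) and Pcgf3, as lower, without cKO 2-cell replicate 1 (0.0208).

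Kdm2b could not be placed at this stage, because its cKO libraries, with 45.4 and 13.0 FPKM, lay on either side of the WT libraries with 18.2 and 17.2 FPKM. The log2 fold change was 0.45 with an interval of -0.81 to 1.71. It was 1.31 without cKO 2-cell replicate 2 (limma adjusted p = 0.00287) and -0.41 without cKO 2-cell replicate 1 (0.0327), so it was called in opposite directions depending on the library left out. Replicate 2 is the library with the larger FPKM sum and with 4240 genes at the floor. The difference of the genotype effect between the stages was tested as an interaction. It passed for 0 of the 8 subunits, against 11.8% of all genes, although Kdm2b passed as lower without cKO 2-cell replicate 1 (-0.74, limma adjusted p = 0.0203) and as higher without replicate 2 (0.98, 0.0137). For Pcgf1 the interaction was 1.24 ± 0.44 SE on the log2 scale (limma adjusted p = 0.121) and for Bmi1 -0.89 ± 0.44 SE (limma adjusted p = 0.237), so the 2-cell difference of Pcgf1 was not shown to differ from that in zygotes. Under an unadjusted p of 0.05 the interaction took 1 subunit (Pcgf1) and 4433 genes. The stage and genotype comparisons share libraries, and their values are therefore given side by side only.

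The balance of the ligase transcript and the transcript of the deubiquitinase was given as the ratio of Rnf2 to Usp16 FPKM. It was 0.403 and 0.642 in WT zygotes, 4.99 and 5.46 in cKO zygotes, 0.554 and 0.630 in WT 2-cell embryos and 0.702 and 1.62 in cKO 2-cell embryos. The cKO libraries were above the WT libraries at each stage. Usp16 is the deleted gene, so a higher ratio in cKO zygotes follows from the design and is no result about Rnf2. The ratio is of transcripts, and protein was not measured here. In zygotes the Rnf2 libraries overlapped between the genotypes and the Usp16 libraries did not. The ratio of Bmi1 to Rnf2 was 3.24 and 3.31 in WT zygotes, 3.43 and 3.16 in cKO zygotes, 4.31 and 3.92 in WT 2-cell embryos and 1.83 and 2.04 in cKO 2-cell embryos. Taken against the ligase, Bmi1 was thus lowest in the cKO 2-cell libraries, with little spread inside each pair. The ratio of Pcgf1 to Pcgf5, the PCGF genes that moved most between the stages, was 408.5 and 294.1 in WT zygotes, 527.3 and 355.9 in cKO zygotes, 1.67 and 0.971 in WT 2-cell embryos and 2.09 and 2.82 in cKO 2-cell embryos.

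Rnf2 varied little and mostly within groups, so its pattern over the 8 libraries was unlike that of its partners. Over 7534 genes with a mean of at least 10 FPKM in some group, those with the highest Pearson r to Rnf2 on the log2(FPKM + 1) scale were Ufm1 (0.875), Yipf4 (0.869) and Fam103a1 (0.856). Its r to the other subunits ran from -0.381 with Kdm2b to 0.434 with Pcgf5. Among the subunits, Pcgf1 and Kdm2b varied together (r = 0.844), as did Pcgf5 and Rybp (0.903) and Pcgf3 and Pcgf5 (0.858), whereas Pcgf1 ran opposite to Pcgf3 (-0.923) and Pcgf5 (-0.860). These 8 libraries fall into 4 groups, so the r values mainly restate the differences between the stages and are given as a description.

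The other genes of the pathway were taken from lists. All 20 partners of the variant complexes were in the table. From WT zygotes to WT 2-cell embryos 6 of them rose and 1 fell by limma, where 34.2% of all genes rose and 15.5% fell. These counts depended on the fit, with 5 and 5 under median-ratio scaling, 4 and 4 under quantile normalization, 8 and 4 in the fit of the 4 WT libraries and 9 and 4 without either cKO 2-cell library. Hdac1, the histone deacetylase found in the PCGF6 complex, rose 38.2-fold from 4.48 and 2.43 to 116.6 and 147.0 FPKM (limma adjusted p = 2.20e-04). Cbx3, a heterochromatin protein of the same complex, rose 15.3-fold to 316.0 and 335.5 FPKM (2.01e-04), and L3mbtl2, another chromatin-binding subunit of it, rose 8.51-fold to 21.6 and 32.3 FPKM (0.00470). Bcor, the corepressor that joins PCGF1 and KDM2B, was at the floor in each library of WT zygotes and rose at least 8.29-fold to 9.67 and 6.92 FPKM (0.00663). The subunits of the PCGF1 complex thus did not move together, since Pcgf1 and Kdm2b fell while Bcor rose. In cKO embryos 5 rose and 6 fell across the stages, among them Skp1a, the adaptor of the PCGF1 complex, which fell 10.0-fold (limma adjusted p = 2.68e-04).

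In 2-cell embryos 5 of the 20 variant partners were lower and 0 higher in cKO than in WT, which is near the 24.6% lower and 6.16% higher among all genes. They were Auts2, an activator that binds the PCGF3 and PCGF5 complexes (4.02-fold lower, limma adjusted p = 0.0141), Yaf2, the paralog of Rybp (3.05-fold, 0.00834), Tfdp1, the dimer partner of E2F proteins (2.89-fold, 0.0183), Fbrs and Skp1a. Max passed the ratio of 3 (3.33-fold lower mean) with overlapping libraries, at 8.06 and 27.3 FPKM against 92.0 and 25.9 FPKM, and did not pass limma. The median log2 fold change of the list was -0.74, and it was -0.28 under median-ratio scaling (1 higher and 3 lower) and -0.40 under quantile normalization (0 higher and 3 lower). It was 0.01 without cKO 2-cell replicate 2 (2 higher and 4 lower) and -1.10 without replicate 1 (0 higher and 12 lower), and the fit of the 4 libraries alone called 0. The direction of the list as a whole therefore rested on cKO 2-cell replicate 2.

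Canonical PRC1 adds CBX proteins, which read H3K27me3, and the PHC and SCM proteins, which link complexes into chains. Of 9 such genes 8 were analysed. In WT embryos 3 rose and 0 fell across the stages, beside 34.2% and 15.5% of all genes. Cbx8 was at the floor in all 4 zygote libraries and had 16.8 and 19.3 FPKM in WT 2-cell embryos, at least 18.0-fold higher (limma adjusted p = 2.62e-04), and Phc2 rose 2.86-fold (0.00712). Cbx7 was at the floor in zygotes as well and reached a mean of 3.58 FPKM. Between 2-cell genotypes 4 of 8 were lower in cKO and 0 higher, beside 24.6% and 6.16% of all genes. Scmh1 had 2.19 and 1.19 FPKM against 12.3 and 11.8 FPKM (7.12-fold lower, limma adjusted p = 0.00640), Cbx2 was 4.04-fold lower (0.00574), Scml2 2.72-fold (0.0353) and Phc2 2.30-fold (0.0291). The list median was -1.24, and between -0.88 and -0.81 under the other scalings, with 2 or 3 lower and 1 higher. The list also had 3 lower without cKO 2-cell replicate 1 and 4 lower and 1 higher without replicate 2, but 0 when the 4 libraries were fitted alone.

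**Figure D4:**
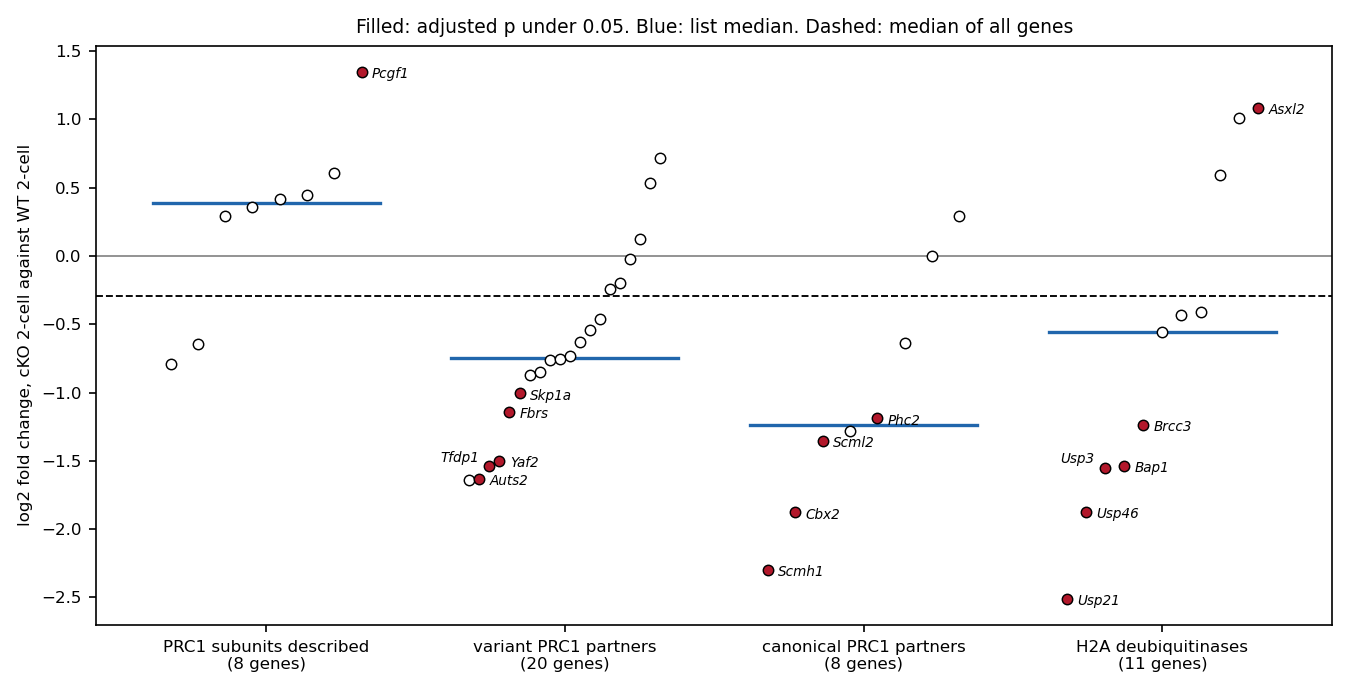
Log2 fold change between cKO and WT 2-cell embryos (limma, log2(FPKM + 1)) for the 8 PRC1 subunits, 20 variant partners, 8 canonical partners and 11 genes of H2A deubiquitinases, with a point per gene, filled and named where the adjusted p was under 0.05. The median of the subunits (blue line, 0.39) lay above that of all genes (dashed line, -0.30), and the medians of the partner lists (-0.74 and -1.24) and of the deubiquitinases (-0.55) lay below it.

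H2A deubiquitinases, which oppose PRC1, and their cofactors were taken as a list of 11 genes. Usp46, Asxl1, Asxl2 and Brcc3 are on this list but not among the H2A deubiquitinases named in the paper's introduction. In 2-cell embryos 5 were lower and 1 higher in cKO than in WT, beside 24.6% and 6.16% of all genes. Usp21 had 9.88 and 5.09 FPKM against 54.9 and 37.4 FPKM (6.17-fold lower, limma adjusted p = 0.00622), Usp46 was 3.84-fold lower (0.00284), Usp3 3.32-fold (0.00650) and Bap1, the catalytic subunit of the PR-DUB complex, 3.05-fold (0.00804). Brcc3 was also lower, and Asxl2, a cofactor of BAP1 and no enzyme itself, was higher (0.0453). Across the stages in WT embryos 3 rose and 4 fell (34.2% and 15.5% of all genes), with Usp22, of the SAGA complex, 15.7-fold higher (limma adjusted p = 0.00453) and Usp46 7.61-fold lower (1.99e-04). Between zygotes the call by limma was 0 for each of the 3 lists, and Usp16 alone passed the ratio of 3. For the 2-cell genotypes the list median was -0.55, and -0.08 and -0.69 under median-ratio scaling and quantile normalization, each with 2 higher and 4 lower. It was -1.04 without cKO 2-cell replicate 1 (1 higher and 7 lower) and -0.34 without replicate 2 (3 higher and 5 lower), and the fit of the 4 libraries alone called 0.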

How the data were processed

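RNA-seq was measured in 8 libraries of 10 embryos each by Smart-seq2, with groups taken from the sample labels. ChIP-seq samples of the series were not used here. The authors trimmed reads to 50 bases, mapped them to mm9 with TopHat2 2.1.1, computed FPKM with Cufflinks 2.2.1, set values under 1 to 1 and deposited the FPKM of genes above 1 in some library. The gene annotation is not given in the sources used here. The table gives no counts, and the precision rests on 2 libraries per group.

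Genes were tested by limma 3.58.1 (R 4.3.3) on log2(FPKM + 1), a scale that understates changes of low genes, with a mean-dependent prior, all 4 groups fitted together, 4 residual degrees of freedom, Benjamini-Hochberg adjustment over all 14392 genes and a threshold of 0.05. This shared spread does not describe the wider spread of the cKO 2-cell pair. For genes uneven in that pair, such as Kdm2b and Usp16, it is also wider than the spread of the other pairs. The study's rule, a ratio of mean FPKM above 3, was run beside it. The script was tested on simulated data. Tables were handled with Python 3.11.15 and pandas 2.3.3. The subunits, lists and tests were chosen with earlier results of these data known. A gene initially on the list of canonical partners is not reported here and was left out of that list's counts and median. Named genes were the listed subunits, Usp16, up to 4 called genes with the largest ratio per list and comparison (Fbrs, Brcc3 and other genes beyond these complete a count and were named after their values were seen), and the 3 genes most like Rnf2. Alternatives changed the pseudocount, filter, threshold, scaling, weights, samples and block, and left out each library. The crossed replicate block was added after the data were seen.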

Additional observations from a re-analysis of the deposited data

Results flagged for a closer look

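Bmi1 was set apart because both WT 2-cell libraries lay above both WT zygote libraries while both cKO 2-cell libraries lay below both cKO zygote libraries. The share of all genes with such a pattern was not counted, so it is not shown to be particular to Bmi1. The difference of the Bmi1 stage change between the genotypes was -0.89 on the log2 scale and did not pass limma's interaction test (adjusted p = 0.237).

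The genotype effect differed between the stages by limma's interaction (adjusted p under 0.05) for the deleted gene Usp16, with 2.65 on the log2 scale, and for several partners and deubiquitinases. The interaction was -1.95 for Yaf2, -2.39 for Scmh1, -1.57 for Usp3, -2.74 for Usp21, -1.64 for Brcc3 and -1.50 for Usp46, so each of these 6 was lower in cKO 2-cell embryos relative to the zygote difference. Of all genes 1701 passed this interaction in the fit of 8 libraries, 1 with the replicate block, and 1 or 2 when any zygote library was left out, so these flags depend on the fit.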

How the results depend on the processing

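The 10 called changes of subunits kept their direction in all 161 alternatives and stayed past the threshold in 127. Several alternatives could not change a fold change. These were the filter, the group weights, the fit of 4 libraries and leaving out a library outside the comparison. For them the direction was fixed in advance, and only the threshold was open. Pcgf5 rose in both genotypes and Pcgf1 fell in WT embryos under every alternative run. The cause of the changes below was not tested.

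For subunits called by limma from WT zygotes to WT 2-cell embryos, 1 rose under quantile normalization or the replicate block in place of 3, and 1 fell under the block in place of 2. In cKO embryos 1 fell in place of 2 under group weights, the block or the 4 libraries alone. As it was set up, the block compares the stages at the level of replicate 1 and not of the group means. Its calls across the stages therefore do not show an effect of pairing. For the 11 genes of the deubiquitinase list, the median log2 fold change across the WT stages was 0.23 with the block and -0.08 without it. Between 2-cell genotypes median-ratio scaling called 4 higher and quantile normalization 1 lower, while group weights and the 4 libraries alone called 0 higher. By the ratio, a threshold of 2 called 2 higher in each genotype across the stages, 2 lower in cKO and 1 higher between 2-cell genotypes. Requiring every library to differ more than 3-fold, or median-ratio scaling, left 0 lower in cKO, and median-ratio scaling gave 1 higher between 2-cell genotypes. The share of all genes was not counted for these ratio settings, nor for the ratio without 1 library below. These subunit counts thus have no background beside them.

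Leaving out 1 library gave 1 to 3 higher and 1 to 2 lower across the stages in WT and 2 to 4 higher and 0 to 2 lower in cKO. It gave 0 to 2 higher and 0 to 2 lower between 2-cell genotypes, and 0 to 1 in each direction for the interaction. By the ratio it gave 1 to 2 higher in WT and 0 to 1 lower in cKO.

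Log2 fold changes that turned direction were uncalled in the fit of 8 libraries. Across the stages Rnf2 in WT was -0.20 under median-ratio scaling, -0.0801 under quantile normalization and -0.21 to 0.48 without 1 library, and Pcgf6 in cKO was -0.0487 under quantile normalization and -0.0086 to 0.49 without 1 library. Between zygotes, leaving out 1 library gave -0.26 to 0.43 for Rnf2, -0.27 to 0.46 for Bmi1, -0.27 to 0.49 for Pcgf1, -0.12 to 0.0728 for Pcgf3 and -0.12 to 0.0455 for Pcgf6. Between 2-cell genotypes it gave -0.41 to 1.31 for Kdm2b, past the threshold as lower without cKO 2-cell replicate 1 and as higher without replicate 2. For the interaction it gave -0.14 to 0.55 for Rnf2 and -0.74 to 0.98 for Kdm2b, which passed in both directions in the same way.

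The labels share replicate numbers without describing a pairing. Deviations of same-numbered WT and cKO libraries correlated at 0.50 in zygotes and -0.24 in 2-cell embryos. With the replicate block, Pcgf1 between 2-cell genotypes kept its call, and genes called there numbered 527 higher and 2635 lower in place of 887 and 3538. The crossed block, added after seeing the data, called 969 higher and 3636 lower, and 1 subunit higher. With 2 libraries per group and no counts, small differences could not be seen.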

Other observations

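RYBP and YAF2 occupy the same place on the ligase in variant PRC1, and the 2 transcripts lay on opposite sides of WT in cKO 2-cell embryos. Yaf2 had 8.59 and 8.29 FPKM there against 24.7 and 26.8 FPKM in WT 2-cell embryos, and Rybp had 37.3 and 34.7 FPKM against 28.6 and 18.8 FPKM. In zygotes Yaf2 was the more abundant of the pair, with 24.6 and 37.2 FPKM in WT and 46.6 and 37.1 FPKM in cKO, where Rybp was at most 14.2 FPKM in every library. The values of Yaf2 passed limma between 2-cell genotypes (adjusted p = 0.00834) and those of Rybp did not (0.104).

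In the PCGF6 complex, Pcgf6 itself was at least 165.7 FPKM in every library, whereas its partners differed. L3mbtl2, Mga, Hdac1 and Cbx3 had at most 3.92, 3.08, 4.48 and 28.0 FPKM in zygotes and rose in both genotypes by limma. Some other partners did not rise by limma in either genotype. Their means in WT zygotes were 59.8 FPKM for Hdac2, 57.5 for Wdr5, 33.2 for Tfdp1 and 33.1 for Max. Hdac2 fell in cKO embryos (limma adjusted p = 0.0160). E2f6 was at the floor in all 4 zygote libraries. It rose in WT embryos, at least 3.20-fold (limma adjusted p = 0.0472), and did not pass in cKO embryos (limma adjusted p = 0.212). The cKO 2-cell pair was uneven for several of these genes, with Mga at 33.3 and 9.18 FPKM and L3mbtl2 at 26.1 and 9.03 FPKM.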
